A study of Arabidopsis thaliana with 4 samples.

Results

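TRAF-like proteins with a MATH domain were examined in root tips of Arabidopsis thaliana as a family of 8 genes. It is led by ZW9 (AT1G58270) and AT4G01390. The other 6 are AT3G20370, AT3G28220, AT2G04170, AT3G17380, AT5G52330 and AT3G58290. In the platform annotation used, 13350 genes had a probe set of their own. A member was measured where it had a probe set of its own there, which held for 7 of the 8, each through 1 probe set. AT2G04170 had none there and was left out. That annotation left many probe sets without a gene, so a gene that lacks one there may still have probes on the arrays. The family was chosen by measured values, namely the signals of ZW9 and AT4G01390 on these arrays, which lay among the largest changes between the genotypes. The differences of the 7 measured genes are therefore given as a description, and where they fall against a threshold supports nothing.

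The arrays compare 2 wild type samples with 2 samples of sol2, a mutant of SOL2 (CORYNE), a receptor-like kinase that acts in the perception of CLE peptides. Seedlings of both genotypes were grown for 4 days at 23 °C in continuous light on MS medium, and RNA came from root tips. The labels used here give neither the sol2 allele nor the accession, and do not say whether seedlings were pooled or whether replicates came from separate cultures. The p-values below thus cover only the spread among these 4 arrays, and that spread may be technical. In whole root tips, fewer cells of a type and less RNA per cell cannot be told apart.

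The MATH domain takes its name from meprin proteases and from TRAF adaptor proteins, the animal families in which it was recognised. It is a fold of beta strands that binds short stretches of partner proteins. Plants carry many genes whose products consist of little more than MATH domains, often in tandem. In other plant proteins the domain is joined to a BTB domain, as in the BPM adaptors that bring substrates to cullin ubiquitin ligases, or to a ubiquitin protease. The SINAT proteins, which are RING-type ubiquitin ligases, have a related TRAF-like fold. For most of the genes that encode MATH domains alone, ZW9 and AT4G01390 included, no molecular role is given here.

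The signal of ZW9 was 475.2 and 285.2 on wild type arrays 1 and 2, and 6720.6 and 5361.5 on sol2 arrays 1 and 2. Both sol2 arrays were far above both wild type arrays, and in each genotype replicate 1 was the brighter one. The mean was 380 ± 134 in wild type and 6041 ± 961 in sol2 (SD, n = 2), which is 15.9-fold higher in sol2. Over the 4 pairings of sol2 with wild type arrays, the lowest ratio was 11.3 and the highest 23.6. The wild type arrays differed from each other by 1.67-fold and the sol2 arrays by 1.25-fold. On the scale log2(signal + 18.4) used for the fit, where 18.4 is a pseudocount equal to the 20th percentile of all values, the difference was 3.96 ± 0.26 (SE). It ranked as rise number 7 among the 13648 probe sets above the filter on low values.

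AT4G01390 went the other way. Its signal was 266.7 and 189.5 on wild type arrays 1 and 2, and 33.4 and 37.3 on sol2 arrays 1 and 2. The genotypes did not overlap, and sol2 array 1 lay within the range of 27 control probe sets for bacterial transcripts, whose highest signal was 34.1. The mean was 228 ± 54.6 in wild type and 35.4 ± 2.76 in sol2 (SD, n = 2). With signals under 34.1 set to that value, AT4G01390 was at least 6.39-fold lower in sol2. The log2 difference was -2.18 ± 0.27 (SE), fall number 13 among the probe sets tested. It depended on the pseudocount, with -2.59 for the 5th percentile and -1.40 for the 40th.

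AT3G20370 was far above the bacterial controls in both genotypes. Its signal was 9477.8 and 7343.1 on wild type arrays 1 and 2, and 8147.4 and 7767.6 on sol2 arrays 1 and 2. Both sol2 values lay between the wild type values, so the genotypes overlapped. The log2 difference was -0.07 ± 0.16 (SE, n = 2 per genotype), and the sol2 to wild type ratios of single arrays ran from 0.820 to 1.11. Leaving out 1 array at a time gave log2 differences from -0.25 to 0.12. The 3 members above the filter thus had a higher signal, a lower signal and a difference smaller than its error in sol2.

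The remaining 4 measured members were below the filter, and their log2 differences come from the fit without it. AT3G17380 had a signal of 45.3 and 43.5 in wild type against 57.1 and 63.5 in sol2, above the bacterial controls on all 4 arrays. Its genotypes did not overlap, and its log2 difference was 0.32 ± 0.25 (SE). AT5G52330 had 24.4 and 22.4 in wild type against 22.8 and 15.5 in sol2, so every array lay within the control range. AT3G28220 had 10.7 and 13.6 in wild type against 1.8 and 36.1 in sol2. AT3G58290 had 7.8 and 39.2 in wild type against 16.4 and 6.1 in sol2. Each of the last pair exceeded 34.1 on 1 of the 4 arrays, and the genotypes overlapped. For AT3G28220 the sol2 arrays differed from each other by 20.1-fold and for AT3G58290 the wild type arrays by 5.03-fold, which is more than either gene differed between the genotypes. Signals this close to the controls do not give a direction.

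**Figure D1:**
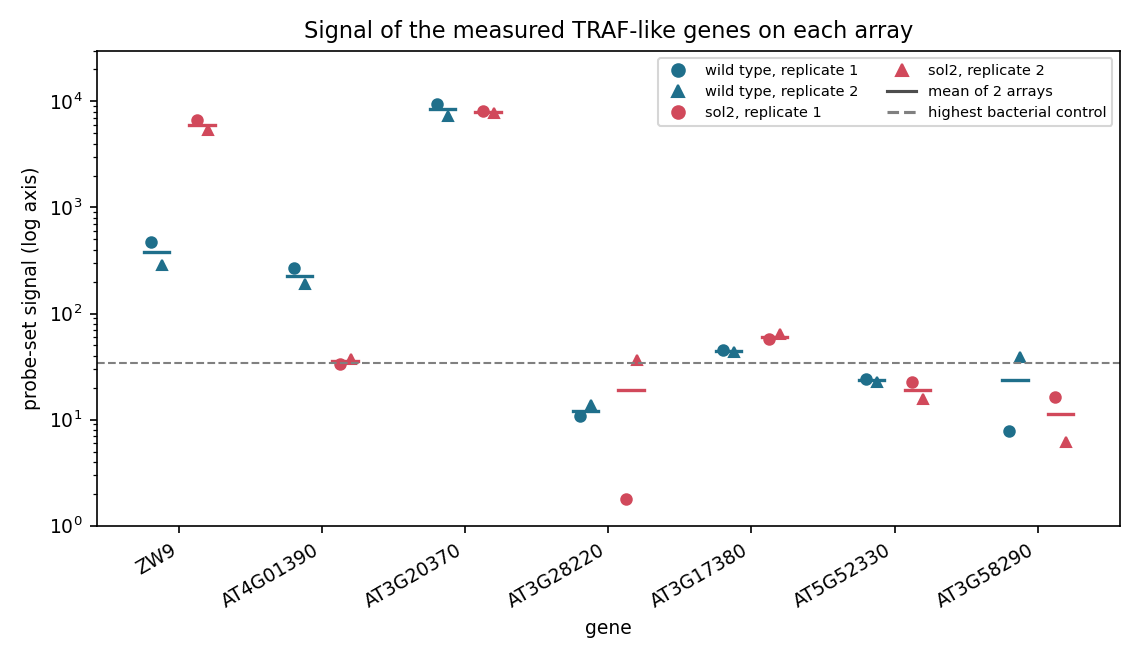
Signal of the 7 measured members on each of the 4 arrays (log axis), with replicates as circles and triangles, the mean of each genotype as a bar, and the highest bacterial control (34.1) as a dashed line. ZW9 is higher and AT4G01390 lower on both sol2 arrays, AT3G20370 overlaps, and 3 of the other 4 lie mostly at or under the controls.

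The threshold for a call was an adjusted p under 0.05 (limma, Benjamini-Hochberg over all probe sets above the filter). Of all probe sets tested, 1.25% were called, 0.945% higher and 0.3% lower in sol2. Among the members 3 were above the filter, and ZW9 was on the higher and AT4G01390 on the lower side. A criterion without a variance model asked for at least a 2-fold difference in signal + 18.4 in all 4 pairings of sol2 with wild type arrays. It was met by 1.31% of the tested probe sets, and by ZW9 and AT4G01390. Because the family was chosen for these differences, neither count supports them. Genotypes without overlap were common, at 36.2% of the tested probe sets. The position against the threshold depended on the filter for AT4G01390, which was not called without it and not tested with a filter at the 60th percentile. The filter used the mean over all 4 arrays. AT4G01390, with 33.4 and 37.3 in sol2, was above it only through its wild type arrays, so being tested already depended on the genotype difference.

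To set the members among their relatives, 66 other genes of the MATH and TRAF-like family were listed. In the annotation used, 20 of them had a probe set of their own. Of these, 10 were above the filter. AT5G26260 rose, none fell, and 9 did not pass the test (limma), which 1.25% of all tested probe sets passed. At an unadjusted p under 0.05, 2 of the 10 were higher and 0 lower, while 702 of the 13648 tested probe sets were higher and 513 lower (8.9% together). Their median log2 difference was 0.15, against 0.004 over all tested probe sets. A further 2 probe sets were each paired with 2 genes, a family gene among them, and were not used.

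AT5G26260, another gene for a TRAF-like protein, rose 3.30-fold. Its signal was 2517.7 and 2327.9 on wild type arrays 1 and 2, and 7674.3 and 8332.7 on sol2 arrays 1 and 2. The genotypes were well apart, while replicates of one genotype differed by at most 1.09-fold. The mean was 2423 ± 134 in wild type and 8004 ± 466 in sol2 (SD, n = 2), with a log2 difference of 1.72 ± 0.15 (SE, adjusted p = 0.00193, limma). It was called in all 12 alternative settings. AT5G26260 was known from these arrays, before the list was written, as the end of a stretch of chromosome 5 dense in changed genes. Its p-value and calls are therefore given as a description.

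AT1G65370, also TRAF-like, did not pass the test. Its signal was 35.4 and 52.3 on wild type arrays 1 and 2, and 121.3 and 188.6 on sol2 arrays 1 and 2. Both sol2 arrays were above both wild type arrays, whose lower signal lay just above the controls. AT1G65370 was thus above the filter only through its sol2 arrays. The mean was 43.9 ± 12.0 in wild type and 155 ± 47.6 in sol2 (SD, n = 2), and the log2 difference was 1.46 ± 0.30 (SE, adjusted p = 0.0745, limma). Among the settings that kept all arrays, AT1G65370 passed only with a replicate block. That fit leaves almost no spread between arrays from which to estimate error. With arrays left out in turn, the log2 difference of AT1G65370 ran from 1.18 to 1.75. The gene next to AT1G65370 in the annotation is CLV2, which encodes a receptor-like protein that acts together with the SOL2 protein in CLE peptide perception. CLV2 had no probe set of its own in the table used.

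The other measured TRAF-like relatives were dim, apart from AT5G26280, described below. Below the filter lay 9 genes, with signals from 1.0 to 53.8 and log2 differences from -0.86 to 0.48 in the fit without a filter. For 7 of them every array was within the control range. Their adjusted p ran from 0.552 to 0.972 (limma without the filter). The lowest value was that of AT1G69660, with 21.7 and 41.0 in wild type against 2.6 and 16.1 in sol2.

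Relatives in which the fold is joined to other domains lay mostly above the filter, and none passed the test. Of all tested probe sets only 1.25% passed, so with so few genes this does not set them apart. The BTB-MATH adaptor gene BPM3 had 679.0 and 737.6 in wild type against 802.9 and 884.8 in sol2 (log2 0.25 ± 0.19, SE, adjusted p = 0.881, limma). The TRAF1-type genes AT1G04300 and AT5G43560, known for adaptors in the turnover of immune receptors, gave 0.13 ± 0.29 and 0.40 ± 0.20 on the log2 scale (SE, adjusted p = 0.976 and 0.683, limma). Of 6 SINAT genes 5 were measured and 4 tested, and their log2 differences lay between -0.49 and 0.17 (adjusted p between 0.678 and 0.983, limma). AT5G53360 was at the lower end, with 257.8 and 219.2 in wild type against 189.7 and 141.9 in sol2, and AT2G41980 at the upper end, where the genotypes overlapped.

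**Figure D2:**
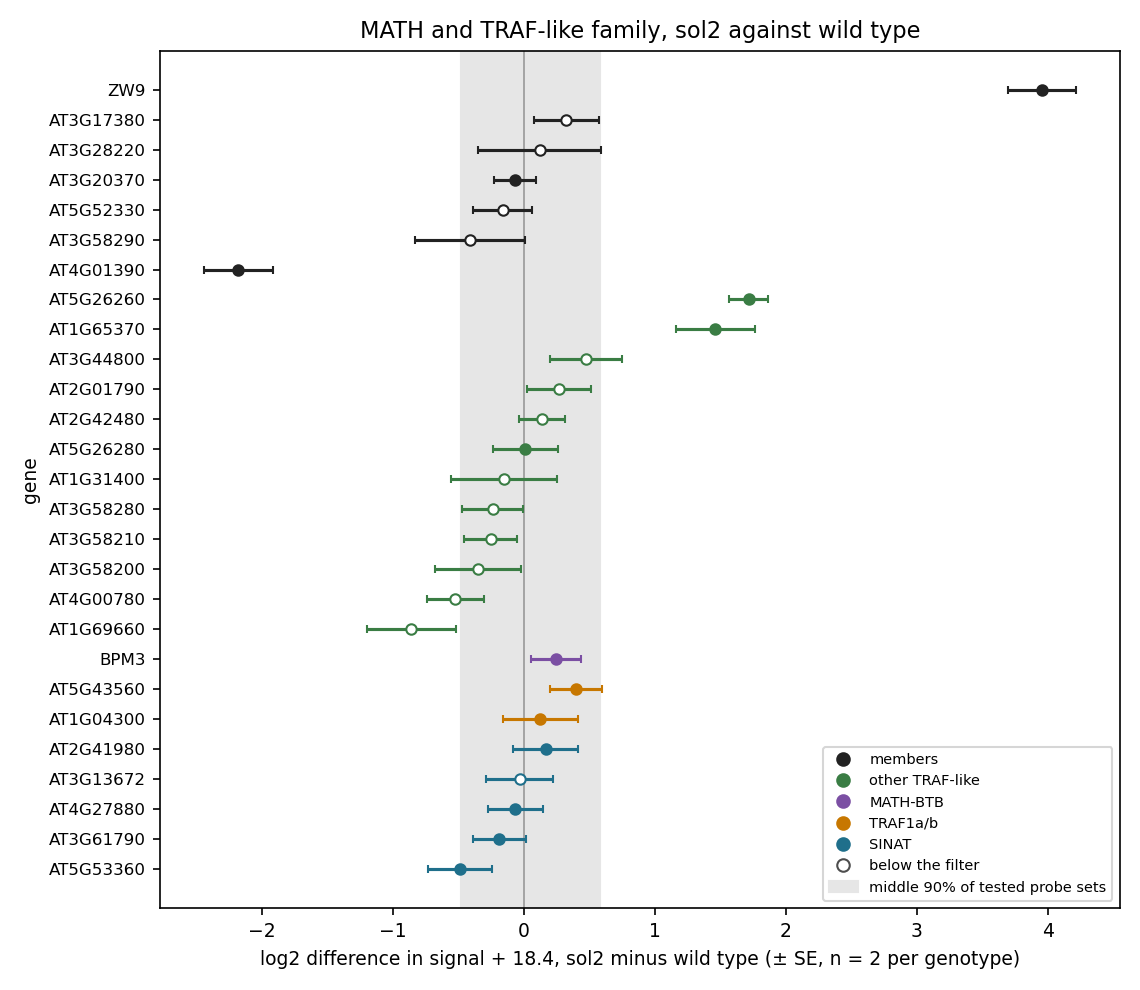
Log2 difference in signal + 18.4 between sol2 and wild type (± SE, n = 2 per genotype) for the 27 measured genes of the family, coloured by group, with open circles for genes below the filter and a grey band for the middle part of all tested probe sets, from the 5th to the 95th percentile (-0.48 to 0.58). ZW9 (3.96), AT5G26260 (1.72), AT1G65370 (1.46) and AT4G01390 (-2.18) lie outside the band among tested genes, with AT5G53360 (-0.49) at its edge.

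ZW9, AT4G01390 and AT5G26260 were looked at with the 5 annotated genes on each side. None of the 10 neighbours of ZW9 had a probe set of its own in the annotation used. Of the 10 neighbours of AT4G01390, 3 were measured, 2 were above the filter and none passed the test, as against 1.25% of all tested probe sets. AT4G01395, the next gene on one side, had 751.3 and 814.6 in wild type against 853.0 and 1038.1 in sol2 (log2 0.26 ± 0.20, SE, adjusted p = 0.869, limma). AT4G01410 had 106.5 and 132.4 in wild type against 282.2 and 263.0 in sol2, which is opposite in direction to AT4G01390 (log2 1.08 ± 0.23, SE, adjusted p = 0.0897, limma). On the other side AT4G01380 was below the filter, with 40.3 and 35.5 in wild type against 22.9 and 11.4 in sol2.

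AT5G26260 has a TRAF-like relative close by, AT5G26280. These neighbours were looked at after the values of AT5G26260 had been seen. AT5G26280 had 788.7 and 570.3 in wild type against 799.2 and 571.9 in sol2, nearly the same pair of values in both genotypes (log2 0.01 ± 0.25, SE, adjusted p = 0.996, limma). AT5G26270, which lies between them, had 68.4 and 58.6 in wild type against 208.6 and 296.1 in sol2 (log2 1.71 ± 0.26, SE, adjusted p = 0.0232, limma). Both wild type signals of AT5G26270 were under 80.8, the 40th percentile of all values. Its place above the filter thus rested on its sol2 arrays, and its p-value and call are given as a description. The call of AT5G26270 ended without the filter (adjusted p = 0.120) and without sol2 replicate 2 (adjusted p = 0.109). The change of AT5G26260 exceeded that of AT5G26280 by 1.70 on the log2 scale, and the genotypes did not overlap in this contrast. An exact permutation test over the arrays gave a two-sided p of 0.333, the smallest that 2 arrays against 2 allow.

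**Figure D3:**
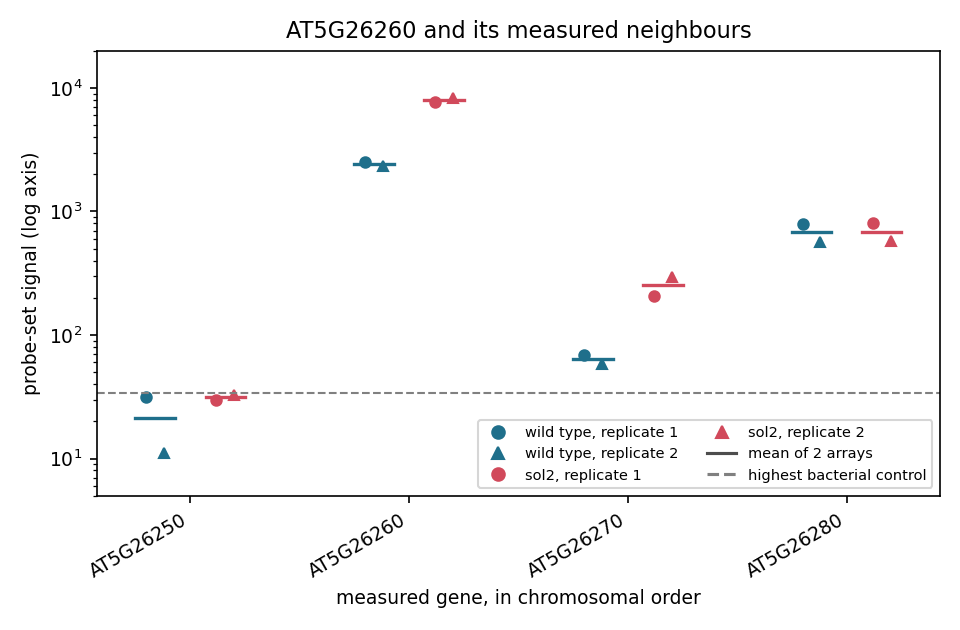
Signal (log axis) of AT5G26260 and its measured neighbours on each array, in the order of the genes on chromosome 5, with replicates as circles and triangles, genotype means as bars and the highest bacterial control (34.1) as a dashed line. AT5G26260 and AT5G26270 are higher on both sol2 arrays, while AT5G26280 overlaps between the genotypes and AT5G26250 lies within the control range.

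For ZW9 and AT4G01390, the genes with the most similar pattern over the 4 arrays were taken from 7403 other tested probe sets with 1 gene. Likeness was the root mean square difference of log2 values over the 4 arrays, each profile centred on its own mean. Nearest to ZW9 was AT1G62510 (0.33), a lipid-transfer-type gene with 42.6 and 19.9 in wild type against 462.3 and 535.5 in sol2. It was followed by AT5G62340 (0.36), of the pectin methylesterase inhibitor type, the dioxygenase gene AT2G25450 (0.39), the acyltransferase gene AT4G15390 (0.45) and the aldo/keto reductase gene AT1G60750 (0.52). Nearest to AT4G01390 was AT3G60980 (0.19), with 183.2 and 165.1 in wild type against 27.6 and 38.6 in sol2. The receptor-like kinase gene AT5G49780 (0.25), AT4G39675 (0.26), the spermidine acyltransferase gene AT2G25150 (0.28) and AT5G37210 (0.28) came next. AT4G15390 was within the range of the bacterial controls on both wild type arrays, with 7.5 and 3.7, and AT1G62510 and AT3G60980 were so on 1 array each, so their distances depend on the pseudocount. The lists describe likeness over 4 arrays and follow the genotype difference by construction.

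Markers of root tip tissues were thinly measured, with 11 of 30 listed genes. The root cap gene AT1G65570 had 285.6 and 515.8 in wild type against 575.5 and 631.3 in sol2 and did not pass the test. The 3 measured root hair genes summed to 8350 and 5807 in wild type and to 4994 and 4295 in sol2. The largest part was AT4G26010, with 5019.5 and 2857.2 in wild type against 2161.6 and 1918.3 in sol2. EXPA18 was also lower on both sol2 arrays, while EXPA7 overlapped between the genotypes. None of the 3 passed the test (adjusted p from 0.238 to 0.964, limma). The 3 measured genes of the meristem list summed to 1121 and 861 in wild type and to 879 and 861 in sol2. These 3 genes differed in direction. UPB1, a transcription factor gene of the transition to elongation, had 961.9 and 650.3 in wild type against 526.2 and 380.3 in sol2 and did not pass the test (adjusted p = 0.326, limma). JKD had 143.0 and 183.5 in wild type against 150.6 and 178.5 in sol2, and the genotypes overlapped. AGL42, a MADS-box gene expressed in the quiescent centre, had 16.2 and 26.7 in wild type against 202.6 and 302.0 in sol2 (adjusted p = 0.00486, limma), the direction of ZW9 and AT5G26260. The phloem sugar transporter gene SWEET11 had 504.7 and 330.5 in wild type against 63.8 and 29.9 in sol2 (adjusted p = 0.00782, limma), the direction of AT4G01390. AGL42 was within the range of the bacterial controls on both wild type arrays, and SWEET11 on sol2 array 2. AGL42 was thus above the filter only through its sol2 arrays, and SWEET11 only through its wild type arrays. The calls of AGL42 and SWEET11 ended without the filter (adjusted p = 0.0545 and 0.0725, limma). The xylem gene GUT2 had 448.1 and 317.4 in wild type against 412.0 and 389.8 in sol2. The 2 green tissue genes summed to 365 and 383 in wild type and to 255 and 242 in sol2, and neither passed the test. Of these, RCA was lower on both sol2 arrays, while PSBW overlapped between the genotypes. No measured marker was within the control range on all arrays. Their part in the changes of ZW9, AT4G01390 and AT5G26260 was not tested.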

How the data were processed

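RNA from root tips was hybridised as biotin-labelled cRNA, and the deposited table gives 1 linear intensity per probe set and array. The submitters' processing notes name GCOS. How it summarised and scaled the probes is not given in the sources used here. Medians per array ran from 142.7 to 160.75, and values were not normalized again here. Of 22810 probe sets, 64 controls were left out. Among the others, 13513 were paired with 1 gene in the platform annotation, 503 with several and 8730 with none, and 13508 of the first matched a locus of the RefSeq gene table (TAIR10.1), which served for names and gene order. Probe and protein sequences were not used here, so a planned comparison of proteins was not made and cross-hybridisation between relatives was not tested.

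Signals were transformed as log2(signal + 18.4). A filter at the 40th percentile of the mean left 13648 probe sets. These were fitted in R 4.3.3 by limma 3.58.1, with genotype as the only term and a prior variance that follows intensity. The p-values were two-sided, with Benjamini-Hochberg adjustment. The code was also run on simulated data with independent errors drawn from the fit's own variance model, which lends the p-values no support. Tables and figures were made with Python 3.11.15, pandas 2.3.3, scipy 1.17.1 and matplotlib 3.10.9. Fold changes on this scale understate those of dim genes. With 2 arrays per genotype, their number limits the precision.

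The members and lists were chosen with earlier results of these data known. The text names every member, relatives that were called, called neighbours, and the 5 most similar profiles of ZW9 and of AT4G01390. The remaining relatives (AT1G65370 among them), neighbours and markers named were chosen after their values were seen. Alternatives were quantile normalization, equal array medians, the 5th and 40th percentile as pseudocount, no filter or one at the 60th percentile, a prior variance without trend, a replicate block and the omission of each array.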

Additional observations from a re-analysis of the deposited data

How the results depend on the processing

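AT5G26260 kept direction and call under all 12 alternatives. These are fits of the same arrays on which its change was already known, so they lend it no further support. The log2 difference of ZW9 ran from 3.61 to 4.31 and that of AT4G01390 from -2.59 to -1.40, which supports neither, since both were chosen for their difference on these arrays. Without the filter, sol2 was called higher for 60 probe sets and lower for 9, and no member was called lower (0 with limma, 1 at an unadjusted p under 0.05). A filter at the 60th percentile gave 68 and 15, and again 0 members were called lower because AT4G01390 was not tested. The median log2 difference of the 7 measured members, -0.07 as computed over them, was -0.20 with the 5th-percentile pseudocount and ran from -0.10 to 0.16 with arrays left out. With arrays left out in turn, 107 to 876 probe sets were higher and 46 to 549 lower, against 129 and 41 with all arrays. The counts were 425 and 144 without wild type replicate 1, and highest without wild type replicate 2. Such fits take the spread of the genotype left with 1 array from the other. Called relatives ranged from 1 to 2 then, since AT1G65370 passed without wild type replicate 1 or 2 and without sol2 replicate 1. Nothing in the labels ties arrays of equal number together. The change from replicate 1 to 2 in wild type correlated with that in sol2 at 0.441, across probe sets. The replicate block gave 660 higher and 462 lower probe sets, and 2 relatives were higher, AT5G26260 and AT1G65370. That fit leaves almost no spread between arrays from which to estimate error, so its larger counts carry little weight. Signals near the bacterial controls limit what can be said of the dim members.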
